A study of Homo sapiens with 6 samples.

Results

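The SLC25 mitochondrial carrier family was followed in HK-2 cells, an immortalised human epithelial line of proximal tubule origin. Its members were taken as every row of the deposited expression table whose gene name is SLC25A followed only by digits, which gave 48 of the 33392 rows, or 47 distinct symbols. The tested cells carried an siRNA against the protein kinase DYRK2 (siDYRK2, 3 libraries), and their controls carried a scramble siRNA (3 libraries). Every library came from cells under TGF-β1, a cytokine that drives matrix production and dedifferentiation of tubule cells, and carries a 48 h time point. Renal fibrosis is the setting of the study, and the question put to the carriers is how their transcripts differ once DYRK2 is silenced in stimulated cells. Cells without TGF-β1 were not analysed here.

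Most mitochondrial carriers are small proteins of the inner mitochondrial membrane that pass nucleotides, phosphate, carboxylates, amino acids, acylcarnitines and cofactors between the cytosol and the matrix. They are encoded in the nucleus, and those of the inner membrane are imported through the TOM pore and inserted by the TIM22 complex. A few members of the family sit in other membranes. The tubule epithelium of the kidney draws most of its energy from mitochondrial oxidation, much of it of fatty acids, and therefore depends on these carriers.

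Levels are given as FPKM, fragment numbers scaled by transcript length and by the size of the library, a scale on which genes can be set side by side. Fold changes are differences of mean log2(FPKM + 0.5), siDYRK2 minus scramble, and understate the change of low genes. A gene was called when limma's moderated test, adjusted over the 15121 genes averaging 0.5 FPKM or more across libraries, gave an adjusted p below 0.05. DYRK2 itself stood at 1.45, 1.54 and 1.49 FPKM in the siDYRK2 libraries, against 5.84, 6.06 and 5.96 FPKM in the scramble libraries (log2 fold change −1.69, SE 0.0513, limma adjusted p = 2e-06). Its exact two-sided permutation p was 0.1, the smallest that 3 against 3 libraries allow. FPKM summed to between 252318 and 255378 per library, of which mitochondrially encoded genes took 27.6% to 27.8% with siDYRK2 and 26.3% to 27.5% with scramble, and the number of fragments behind the values is unknown. The 6 epithelial markers were all tested and summed to 768 to 808 FPKM with siDYRK2 and 718 to 734 with scramble. KRT7, the largest part of this sum, was higher at the threshold, at a mean of 542 FPKM with siDYRK2 and 382 with scramble. CDH1, KRT18 and KRT19 were lower at the threshold, by 2.55-fold, 1.41-fold and 1.62-fold, and the median log2 fold change of the 6 was −0.34. The proximal tubule markers LRP2, SLC22A6 and SLC22A8 had no row. The other 5 summed to 0.2 to 0.29 FPKM with siDYRK2 and 0.4 to 0.52 with scramble. Fibroblast markers with a row summed to 0.62 to 0.75 FPKM with siDYRK2 and 0.35 to 0.42 with scramble (5 of 6), endothelial markers to 0.1 to 0.16 and 0.05 to 0.09 FPKM (5 of 5), and immune markers to 0.52 to 0.85 and 0.24 to 0.37 FPKM (3 of 5). Single fibroblast, endothelial and immune markers reached at most 0.63, 0.11 and 0.85 FPKM, and the part of all these markers in the carrier results was not tested. In bulk samples, fewer cells of a type and less RNA per cell cannot be told apart. No label says whether libraries of 1 group came from different cultures, and p-values therefore reflect library-to-library spread that may be only technical.

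The promoter windows of 4 carriers are shown first, because these genes carry much of what follows: SLC25A20 and SLC25A13, which rose, and SLC25A1 and SLC25A23, which fell. They were chosen after their values were seen. Each window runs from 250 bases before to 50 bases after the start, 5′ to 3′ on the strand of the gene, from RefSeq on GRCh38.p14. They lie on the minus strand at chr3:48898833-48899132 (SLC25A20), chr7:96322049-96322348 (SLC25A13), chr22:19178687-19178986 (SLC25A1) and chr19:6459743-6460042 (SLC25A23). Capitals mark matches, on either strand, to the 8 motifs searched.
SLC25A20: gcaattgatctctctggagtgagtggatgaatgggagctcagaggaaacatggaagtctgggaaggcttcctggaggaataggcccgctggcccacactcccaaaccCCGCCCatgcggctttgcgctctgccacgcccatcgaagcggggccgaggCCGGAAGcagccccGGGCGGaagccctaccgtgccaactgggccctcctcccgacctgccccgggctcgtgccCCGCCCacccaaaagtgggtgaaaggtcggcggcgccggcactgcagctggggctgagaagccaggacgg
SLC25A13: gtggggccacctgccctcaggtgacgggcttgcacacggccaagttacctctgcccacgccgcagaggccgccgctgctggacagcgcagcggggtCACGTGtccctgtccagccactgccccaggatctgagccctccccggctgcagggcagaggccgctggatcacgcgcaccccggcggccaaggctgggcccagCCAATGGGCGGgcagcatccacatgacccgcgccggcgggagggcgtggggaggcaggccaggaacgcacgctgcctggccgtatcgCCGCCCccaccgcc
SLC25A1: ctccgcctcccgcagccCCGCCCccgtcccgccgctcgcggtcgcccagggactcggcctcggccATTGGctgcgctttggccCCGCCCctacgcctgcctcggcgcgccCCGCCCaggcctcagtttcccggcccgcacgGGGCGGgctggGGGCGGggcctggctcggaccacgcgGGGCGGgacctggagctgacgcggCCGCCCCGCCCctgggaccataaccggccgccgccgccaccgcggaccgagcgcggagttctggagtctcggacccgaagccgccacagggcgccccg
SLC25A23: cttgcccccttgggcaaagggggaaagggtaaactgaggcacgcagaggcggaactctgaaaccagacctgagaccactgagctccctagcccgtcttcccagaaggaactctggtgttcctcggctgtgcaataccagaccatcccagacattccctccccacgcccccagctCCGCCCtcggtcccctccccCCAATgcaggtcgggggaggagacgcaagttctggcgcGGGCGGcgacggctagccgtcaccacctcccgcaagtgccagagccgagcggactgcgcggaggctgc

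The window of SLC25A1 held 8 matches to the GC box GGGCGG, of which 1 pair overlapped by a base, and 1 to the CCAAT box. That of SLC25A23 held 2 GC boxes and 1 CCAAT box, and that of SLC25A13 held 2 GC boxes, 1 CCAAT box and 1 E-box (CACGTG). The window of SLC25A20 held 3 GC boxes and 1 ETS core (CCGGAAG), and none to CCAAT. RefSeq windows were found for 39 of the 47 symbols, 49 windows in all. GGGCGG was in 67.3% of these 49 windows, against 45.0% of all 35116 windows in the table. CCAAT was in 44.9% of carrier windows and 34.6% of all windows, CCGGAAG in 22.4% and 10.3%, and CACGTG in 16.3% and 7.26%. The palindromic core bound by NRF1 was in 8.16% of carrier windows and 5.78% of all, and the cAMP element core TGACGT in 10.2% and 7.98%. The sterol element TCACNCCAC was in 1 carrier window, that of SLC25A40, and in 1.13% of all windows. A direct repeat of nuclear receptor sites was in 0 carrier windows and 0.0228% of all. All windows were taken whether or not their genes were tested here, and neither expression nor GC content was matched. Whether the higher carrier shares are particular to the family was not tested. GGGCGG was in 7 of 7 windows of carriers that rose and in 6 of 9 of carriers that fell, and in 16 of 27 of carriers not called. These counts are of windows and not of genes: some carriers have more than 1 window and some have none. A match is a run of letters and not evidence of binding, and a window without one says nothing of the factor.

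Of the 48 rows 42 averaged 0.5 FPKM or more and were tested. The other 6 were SLC25A18 with a mean of 0.308 FPKM, and SLC25A53, SLC25A52, SLC25A2, SLC25A47 and SLC25A48, none above 0.08 FPKM in any library. SLC25A31, an ADP/ATP carrier of the testis, had no row under that name and so was not analysed here. Of the 42 tested rows, 8 rose and 10 fell with siDYRK2 by limma, together 42.9%, where 38.3% of all tested genes were called in either direction. By direction, 19.0% of the tested rows rose and 23.8% fell, against 20.4% and 17.9% of all tested genes. The family's share of calls therefore lay near that of the whole table, and its median log2 fold change was 0.01, against 0.0086 for all tested genes. The median size of the change, whatever its sign, was 0.19 for the carriers and 0.17 for all tested genes.

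**Figure D1:**
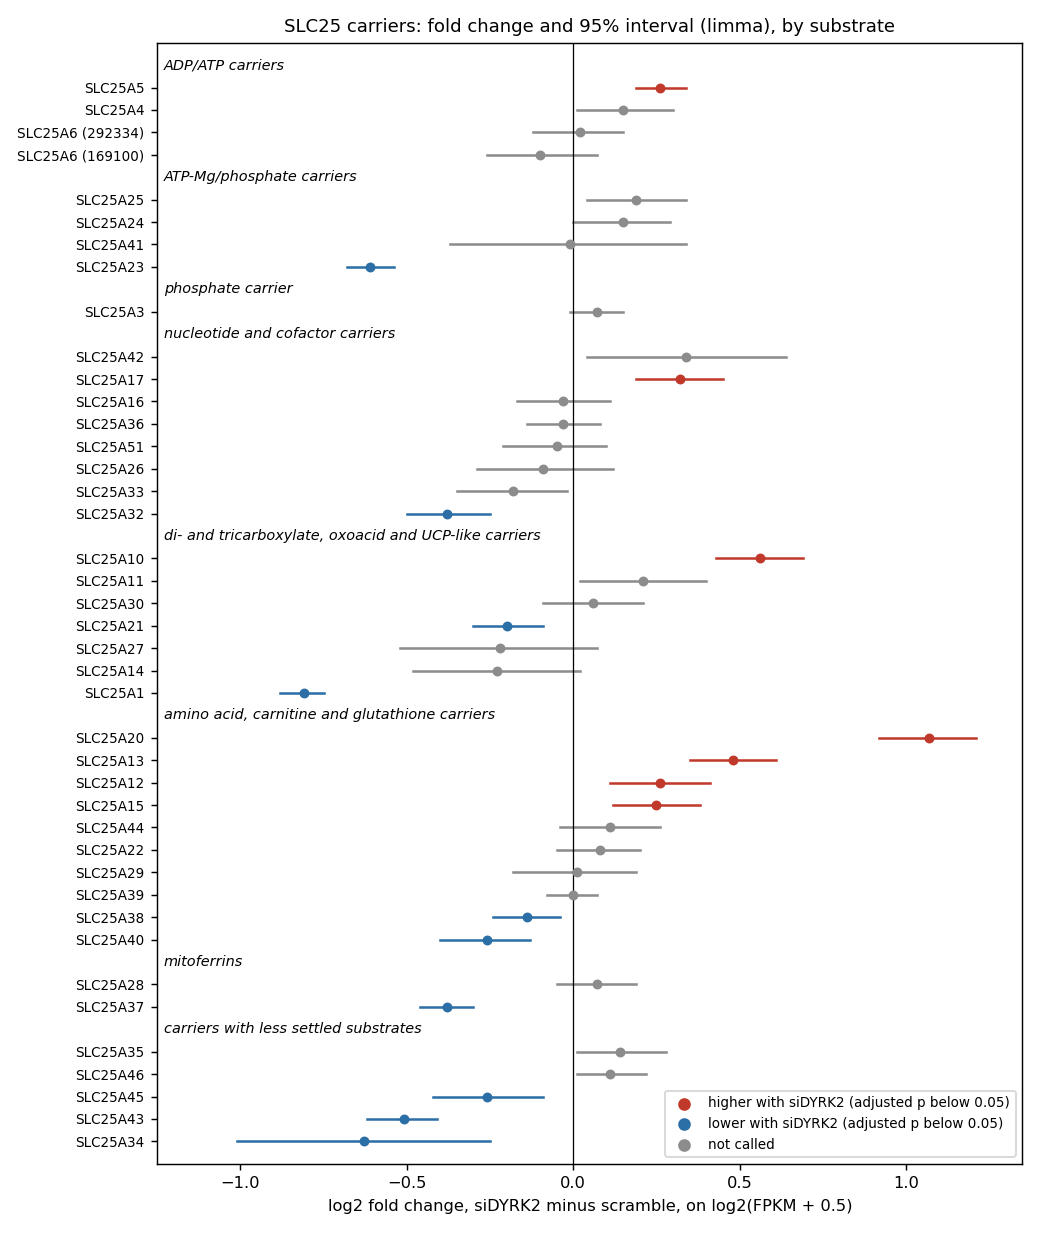
Log2 fold change (horizontal axis, siDYRK2 minus scramble on log2(FPKM + 0.5)) of 41 tested carrier rows, grouped by substrate, with points for the estimate and lines for limma's unadjusted 95% interval. Red rows rose and blue rows fell at an adjusted p below 0.05, and grey rows were not called. SLC25A20 lies farthest to the right at 1.07 and SLC25A1 farthest to the left at −0.81. The 2 SLC25A6 rows carry the last digits of their Ensembl IDs.

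The FPKM of the siDYRK2 and scramble libraries did not overlap for 24 of the 42 tested rows (57.1%), against 51.7% of all tested genes. These 24 included all 18 called rows. Replicates lay close together, with a median coefficient of variation of 5.1% in the siDYRK2 libraries and 4.94% in the scramble libraries. The widest were 24.3% with siDYRK2 and 27.6% with scramble. A log2 fold change of 0.5 or more in size was seen in 6 tested rows (14.3%), against 9.98% of all tested genes.

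**Figure D2:**
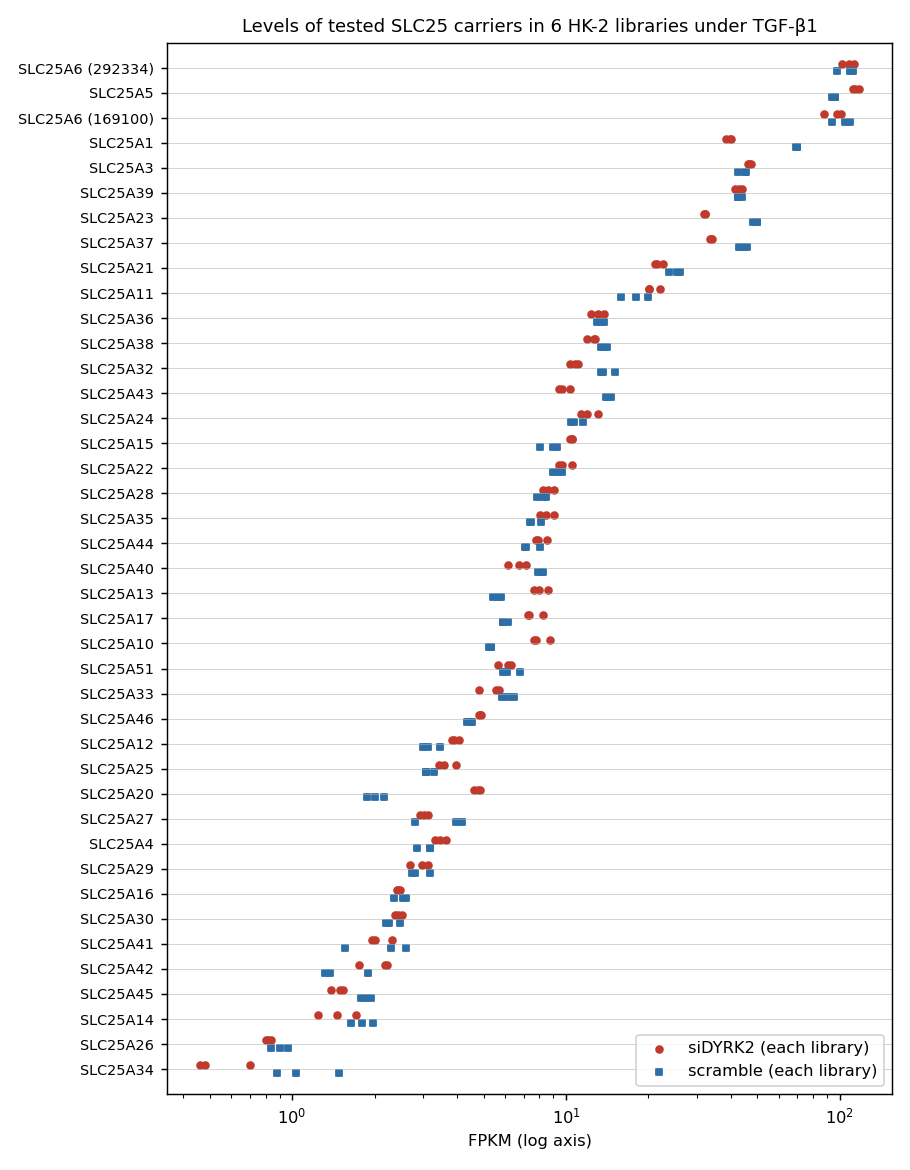
FPKM (horizontal log axis) of 41 tested carrier rows, highest mean at the top, with red circles for the 3 siDYRK2 libraries and blue squares for the 3 scramble libraries. The ADP/ATP carrier rows SLC25A5 and SLC25A6 lead at 87.77 to 117.84 FPKM, and SLC25A34 is lowest at 0.46 to 1.48 FPKM.

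Summed over all 48 rows, the carriers stood at 741.1, 750.5 and 753.1 FPKM in the siDYRK2 libraries and at 786.0, 802.6 and 765.7 FPKM in the scramble libraries. The siDYRK2 sums were all below the scramble sums, with means of 748 ± 6.31 and 785 ± 18.5 FPKM (SD, n = 3 each). Abundant rows weigh most in such a sum. SLC25A1 averaged 39.3 FPKM with siDYRK2 and 69.5 with scramble, and SLC25A23 32.1 and 49.2. SLC25A37 averaged 33.8 and 44.2 FPKM, while SLC25A5 went the other way, at 114 and 95. The median log2 fold change of the tested rows was 0.01, so the lower sum is not a fall across the family. ADP/ATP carriers made up 37.6% to 43.8% of this sum in the 6 libraries. The di- and tricarboxylate group took 12.8% to 16.6%, and the amino acid, carnitine and glutathione group 12.9% to 14.8%.

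The ADP/ATP carriers exchange cytosolic ADP for matrix ATP, and SLC25A5, the isoform of proliferating cells, was the member of this group that rose. SLC25A5 (ENSG00000005022; GRCh38 chromosome X, 119468444 to 119471396, plus strand) stood at 111.45, 113.3 and 117.84 FPKM in the siDYRK2 libraries, against 95.57, 96.17 and 93.33 FPKM in the scramble libraries. Every siDYRK2 library was above every scramble library, a 1.20-fold difference (log2 fold change 0.26, SE 0.0313, limma adjusted p = 0.00071). SLC25A4, the isoform of heart and muscle, was low at 3.48 ± 0.166 FPKM with siDYRK2 and 3.08 ± 0.179 FPKM with scramble (SD, n = 3 each), and its log2 fold change of 0.15 missed the threshold (limma adjusted p = 0.092).

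SLC25A6, the third widely expressed isoform, lies in the pseudoautosomal region shared by the X and Y chromosomes and has 2 rows in the table. One row (ENSG00000292334) stood at 101.71, 112.45 and 107.49 FPKM with siDYRK2, against 108.69, 111.6 and 97.85 FPKM with scramble. The other (ENSG00000169100) stood at 97.73, 87.77 and 101.11 FPKM with siDYRK2, against 104.19, 108.81 and 93.5 FPKM with scramble. Neither row was called, and both overlapped between the groups. Reads of near-identical copies cannot be assigned with certainty, so the split between the rows is uncertain. Their sum stood at 199.44, 200.22 and 208.6 FPKM with siDYRK2, against 212.88, 220.41 and 191.35 FPKM with scramble. The groups overlapped, and the summed gene gave a log2 fold change of −0.04 (95% interval −0.16 to 0.09, limma adjusted p = 0.63). SLC25A5 made up 35.4%, 35.7% and 35.7% of the summed FPKM of SLC25A4, SLC25A5 and SLC25A6 in the siDYRK2 libraries and 30.7%, 30.1% and 32.4% in the scramble libraries.

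SLC25A3 (ENSG00000075415), which brings in the phosphate for ATP synthesis, stood at 46.13, 46.62 and 47.47 FPKM with siDYRK2, against 45.12, 45.49 and 42.61 FPKM with scramble. The siDYRK2 libraries were all above the scramble libraries, but the log2 fold change of 0.07 missed the threshold (95% interval −0.01 to 0.15, limma adjusted p = 0.13).

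The ATP-Mg/phosphate carriers adjust the pool of adenine nucleotides in the matrix, and the most abundant of them fell. SLC25A23 (ENSG00000125648; GRCh38 chromosome 19, 6436081 to 6459792, minus strand), a calcium-regulated member, stood at 32.11, 31.94 and 32.1 FPKM in the siDYRK2 libraries, against 49.61, 49.92 and 48.03 FPKM in the scramble libraries. The groups were far apart relative to their spread (log2 fold change −0.61, SE 0.0286, limma adjusted p = 1.3e-05). Its calcium-regulated relatives SLC25A24 and SLC25A25 were not called. SLC25A24 stood at 11.98, 13.06 and 11.31 FPKM with siDYRK2, against 10.73, 11.53 and 10.42 FPKM with scramble (log2 fold change 0.15, limma adjusted p = 0.1), and it passed the threshold with the replicate number as a block (limma adjusted p = 0.047). SLC25A25 stood at 3.96, 3.59 and 3.45 FPKM with siDYRK2, all above the scramble values of 3.08, 3.08 and 3.29 FPKM (log2 fold change 0.19, limma adjusted p = 0.052), and it passed the threshold without siDYRK2 replicate 3 (limma adjusted p = 0.044) and in 3 other alternatives (0.045 to 0.05).

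The ratio of SLC25A23 to SLC25A24 was 2.68, 2.45 and 2.84 in the siDYRK2 libraries and 4.62, 4.33 and 4.61 in the scramble libraries, so the balance between these paralogs lay nearer to even with siDYRK2. SLC25A41, a short relative without the calcium-binding domain, overlaps SLC25A23 by 187 bases on the same strand, so reads in the overlap cannot be told apart. It stood at 2.1 ± 0.195 FPKM with siDYRK2 and 2.16 ± 0.539 FPKM with scramble (SD, n = 3 each; 95% interval of the log2 fold change −0.37 to 0.34). SLC25A25-AS1, an antisense gene of SLC25A25, fell to 1.19, 0.96 and 1.17 FPKM with siDYRK2, against 1.85, 1.53 and 1.57 FPKM with scramble (limma adjusted p = 0.013), and strand use in the counting is not given in the sources used here.

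Carriers of carboxylates link the citric acid cycle to the cytosol, and they held both a large fall, in an abundant member, and a rise. SLC25A1 (ENSG00000100075; GRCh38 chromosome 22, 19175581 to 19178736, minus strand) exports citrate, the source of cytosolic acetyl-CoA for fatty acid and sterol synthesis. It stood at 38.39, 40.04 and 39.56 FPKM in the siDYRK2 libraries, against 69.84, 69.18 and 69.57 FPKM in the scramble libraries. No siDYRK2 library came near the scramble range, a 1.77-fold fall (log2 fold change −0.81, SE 0.0284, limma adjusted p = 3.9e-06). By the ratio of mean FPKM the low SLC25A34 fell further, 2.07-fold.

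SLC25A10 (ENSG00000183048; GRCh38 chromosome 17, 81712284 to 81721012, plus strand), which exchanges dicarboxylates such as malate and succinate for phosphate, moved the other way. It stood at 7.79, 7.64 and 8.73 FPKM with siDYRK2, against 5.33, 5.32 and 5.23 FPKM with scramble. All siDYRK2 values were higher, a 1.52-fold rise (log2 fold change 0.56, SE 0.0565, limma adjusted p = 0.00036). SLC25A21, the oxodicarboxylate carrier of lysine and tryptophan breakdown, stood at 21.56, 22.68 and 21.21 FPKM with siDYRK2, against 26.09, 25.32 and 23.76 FPKM with scramble, a small fall without overlap (log2 fold change −0.20, SE 0.0452, limma adjusted p = 0.013).

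SLC25A11, the oxoglutarate/malate carrier, stood at 21.95, 20.1 and 20.1 FPKM with siDYRK2, against 15.84, 18.05 and 19.93 FPKM with scramble. The siDYRK2 values were just above the highest scramble library, and the log2 fold change of 0.21 missed the threshold (limma adjusted p = 0.083). Without scramble replicate 3, the highest of its group, it was 0.28 and past the threshold (limma adjusted p = 0.021). Of the carriers related to uncoupling proteins, SLC25A30 stood at 2.44 ± 0.0656 FPKM with siDYRK2 and 2.31 ± 0.147 FPKM with scramble, SLC25A14 at 1.47 ± 0.235 and 1.81 ± 0.17 FPKM, and SLC25A27 at 3.03 ± 0.105 and 3.66 ± 0.732 FPKM (SD, n = 3 each). None of the 3 was called. The scramble libraries of SLC25A27 were split, at 2.82, 3.97 and 4.18 FPKM, and without replicate 1 its log2 fold change of −0.38 passed the threshold (limma adjusted p = 0.0063).

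Among carriers of amino acids, carnitine and glutathione 4 rose, 2 fell and 4 of the 10 tested were not called. Over all tested genes 20.4% rose and 17.9% fell. SLC25A20 (ENSG00000178537; GRCh38 chromosome 3, 48856926 to 48898882, minus strand), which brings acylcarnitines into the matrix for β-oxidation, had the largest change of the family. It stood at 4.62, 4.84 and 4.78 FPKM in the siDYRK2 libraries, against 1.87, 2.16 and 2 FPKM in the scramble libraries. Every siDYRK2 value was more than double every scramble value, a 2.36-fold rise of the mean (log2 fold change 1.07, SE 0.0613, limma adjusted p = 3e-05).

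Both aspartate/glutamate carriers of the malate-aspartate shuttle, which moves reducing equivalents into mitochondria, rose. SLC25A13 (citrin; ENSG00000004864; GRCh38 chromosome 7, 96120220 to 96322098, minus strand) stood at 7.61, 7.98 and 8.6 FPKM with siDYRK2, against 5.8, 5.67 and 5.4 FPKM with scramble (log2 fold change 0.48, SE 0.0555, limma adjusted p = 0.00061). SLC25A12 (aralar) stood at 3.83, 3.9 and 4.06 FPKM with siDYRK2, against 3, 3.48 and 3.13 FPKM with scramble (log2 fold change 0.26, SE 0.0636, limma adjusted p = 0.016). Neither gene overlapped between the groups, and citrin was the more abundant of the pair in all 6 libraries, at 1.99 to 2.12 times aralar with siDYRK2 and 1.63 to 1.93 times with scramble.

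SLC25A15 (ENSG00000102743), the ornithine/citrulline carrier, stood at 10.38, 10.54 and 10.49 FPKM with siDYRK2, against 8.04, 9.28 and 8.93 FPKM with scramble. The siDYRK2 values were tight and all higher (log2 fold change 0.25, SE 0.055, limma adjusted p = 0.011). Its close relative SLC25A2 was listed at 0 in 5 libraries and at 0.04 FPKM in siDYRK2 replicate 1.

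The members that fell in this group were SLC25A40 and SLC25A38. SLC25A40, a relative of the glutathione carrier SLC25A39, stood at 7.16, 6.71 and 6.12 FPKM with siDYRK2, against 7.88, 8.18 and 8.22 FPKM with scramble (log2 fold change −0.26, SE 0.0594, limma adjusted p = 0.011). SLC25A39, the more abundant of the pair, was not called, at 41.48, 42.76 and 43.98 FPKM with siDYRK2 and 42.46, 42.37 and 43.8 FPKM with scramble (95% interval of the log2 fold change −0.08 to 0.07). SLC25A38, the glycine carrier that feeds haem synthesis, stood at 11.94, 12.78 and 12.67 FPKM with siDYRK2, against 13.38, 13.77 and 14.16 FPKM with scramble. That was a small fall (log2 fold change −0.14, SE 0.0416, limma adjusted p = 0.035). The fall missed the threshold without siDYRK2 replicate 1, 2 or 3 or scramble replicate 2 or 3 (limma adjusted p 0.052 to 0.11). Its call was also lost with no filter on low values (limma adjusted p = 0.06) and without the mean-variance trend (0.061).

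Of the others, SLC25A22, a glutamate carrier, stood at 9.86 ± 0.559 FPKM with siDYRK2 and 9.31 ± 0.391 FPKM with scramble, and SLC25A44, a carrier of branched-chain amino acids, at 8.07 ± 0.431 and 7.45 ± 0.54 FPKM (SD, n = 3 each). SLC25A29, which carries basic amino acids, stood at 2.93 ± 0.227 and 2.92 ± 0.244 FPKM (SD, n = 3 each; 95% interval of the log2 fold change −0.18 to 0.19). None of these 3 was called.

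Nucleotide and cofactor carriers included 2 that rose and 1 that fell among 9 tested, beside 20.4% and 17.9% of all tested genes. SLC25A17 (ENSG00000100372), a peroxisomal carrier of CoA and other nucleotide cofactors, stood at 7.24, 8.23 and 7.35 FPKM with siDYRK2, against 5.91, 5.91 and 6.12 FPKM with scramble (log2 fold change 0.32, SE 0.0561, limma adjusted p = 0.0039). All siDYRK2 values of SLC25A17 were higher.

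SLC25A32 (ENSG00000164933), the carrier of folate and FAD, fell. It stood at 10.77, 11.02 and 10.34 FPKM with siDYRK2, against 13.47, 15.11 and 13.6 FPKM with scramble (log2 fold change −0.38, SE 0.0529, limma adjusted p = 0.0015). The highest siDYRK2 value was below the lowest scramble value. Of the CoA carriers, SLC25A42 stood at 2.19, 2.23 and 1.76 FPKM with siDYRK2, against 1.32, 1.89 and 1.37 FPKM with scramble, with overlap, and its log2 fold change of 0.34 missed the threshold (limma adjusted p = 0.073). Without scramble replicate 2 it was 0.47 and past the threshold (limma adjusted p = 0.022). SLC25A16 stood at 2.44 ± 0.0321 FPKM with siDYRK2 and 2.5 ± 0.129 FPKM with scramble (SD, n = 3 each). The pyrimidine nucleotide carriers SLC25A33 and SLC25A36 were not called, at 5.36 ± 0.465 and 13.1 ± 0.715 FPKM with siDYRK2 and 6.15 ± 0.295 and 13.4 ± 0.39 FPKM with scramble (SD, n = 3 each). SLC25A33 was past the threshold under median-ratio scaling alone (limma adjusted p = 0.042). The NAD carrier SLC25A51 and the S-adenosylmethionine carrier SLC25A26 were also not called, with log2 fold changes of −0.05 and −0.09.

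Of the mitoferrins, which bring iron into the matrix for haem and iron-sulphur clusters, the more abundant fell. SLC25A37 (mitoferrin 1; ENSG00000147454) stood at 34.09, 33.82 and 33.6 FPKM with siDYRK2, against 45.72, 44.09 and 42.74 FPKM with scramble, a clear gap between the groups (log2 fold change −0.38, SE 0.0332, limma adjusted p = 0.00019). SLC25A28 (mitoferrin 2) stood at 8.58, 9.05 and 8.23 FPKM with siDYRK2, against 7.84, 8.21 and 8.47 FPKM with scramble, with overlap (log2 fold change 0.07, 95% interval −0.05 to 0.19, limma adjusted p = 0.29). The ratio of mitoferrin 1 to mitoferrin 2 was 3.97, 3.74 and 4.08 in the siDYRK2 libraries and 5.83, 5.37 and 5.05 in the scramble libraries.

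The carriers whose substrates are less settled included 3 that fell and none that rose among 5 tested, SLC25A35 and SLC25A46 being the members not called. Over all tested genes 17.9% fell and 20.4% rose. SLC25A43 (ENSG00000077713; GRCh38 chromosome X, 119399336 to 119454478, plus strand) stood at 10.34, 9.71 and 9.42 FPKM with siDYRK2, against 14.58, 14.13 and 13.95 FPKM with scramble (log2 fold change −0.51, SE 0.0444, limma adjusted p = 0.00018). It ends 13965 bases before the start of SLC25A5 on the same strand, and these neighbours moved in opposite directions. SLC25A34 stood at 0.46, 0.7 and 0.48 FPKM with siDYRK2, against 1.03, 0.88 and 1.48 FPKM with scramble, low values with the widest replicate spread among the called members (log2 fold change −0.63, SE 0.161, limma adjusted p = 0.019). SLC25A45 stood at 1.49, 1.54 and 1.39 FPKM with siDYRK2, against 1.94, 1.84 and 1.79 FPKM with scramble (log2 fold change −0.26, SE 0.0696, limma adjusted p = 0.024). Over the alternatives that tested them, SLC25A34 lost its call in 3 of 14 and SLC25A45 in 6 of 15. The call of SLC25A34 was lost, among others, without siDYRK2 replicate 1 or 3 (limma adjusted p = 0.062 and 0.058). That of SLC25A45 was lost without siDYRK2 replicate 1 or 3 or scramble replicate 1 or 2 (limma adjusted p 0.058 to 0.077) and with the replicate number as a block (0.057).

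**Figure D3:**
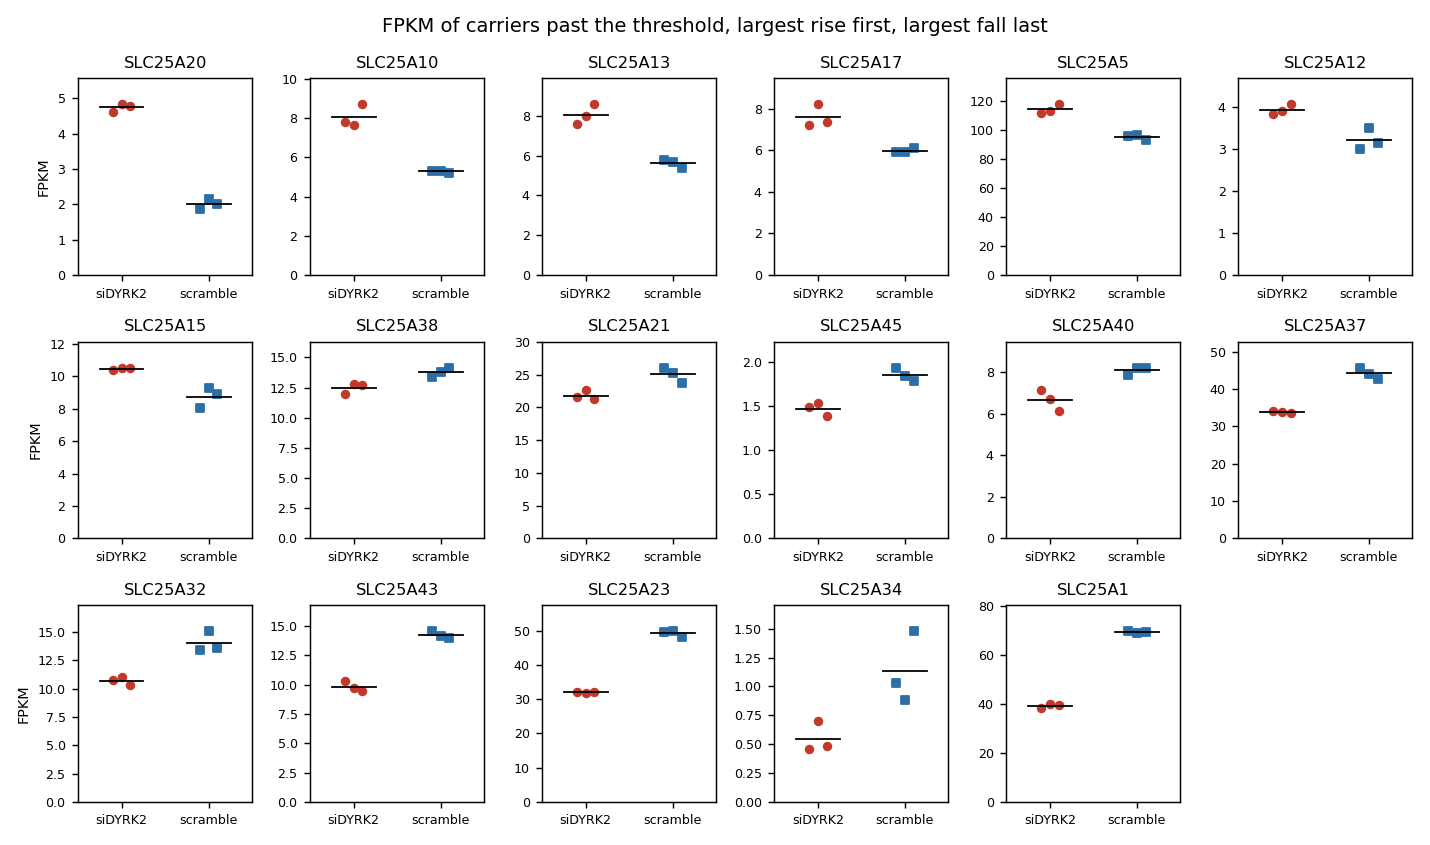
FPKM (vertical axes, each from 0) of 17 carriers past the threshold, with red circles for the 3 siDYRK2 libraries on the left of each panel, blue squares for the 3 scramble libraries on the right and a line at each mean. The groups are separate in every panel, and the ratio of the means is largest for SLC25A20, at 4.75 against 2.01 FPKM.

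SLC25A46, a protein of the outer mitochondrial membrane tied to mitochondrial shape, stood at 4.83, 4.87 and 4.91 FPKM with siDYRK2, against 4.49, 4.55 and 4.35 FPKM with scramble. The siDYRK2 values were all higher, but the log2 fold change of 0.11 missed the threshold (limma adjusted p = 0.078). SLC25A35 stood at 8.51 ± 0.511 FPKM with siDYRK2 and 7.65 ± 0.389 FPKM with scramble (SD, n = 3 each). Rows named as pseudogenes of carriers numbered 13 and reached at most 0.7 FPKM in any library, and 0 were tested.

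Family members with other names did not differ beyond the spread. Of UCP1, UCP2, UCP3, MTCH1 and MTCH2, 3 were tested and 0 were called by limma at an adjusted p below 0.05, and 0 had an unadjusted p below 0.05. UCP2, an uncoupling protein relative, stood at 12.25, 9.89 and 8.58 FPKM with siDYRK2, against 8.97, 8.72 and 9.38 FPKM with scramble.

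Of 16 genes of the import machinery, the TOM pore and the TIM22 route, 4 rose and 1 fell, where 20.4% of all tested genes rose and 17.9% fell. TOMM70, the receptor that binds carrier precursors, stood at 14.49, 13.95 and 13.98 FPKM with siDYRK2, against 11.61, 11.1 and 10.44 FPKM with scramble (log2 fold change 0.34, limma adjusted p = 0.0012). TOMM20 rose 1.25-fold and TIMM13, a chaperone of the intermembrane space, 1.19-fold. Its relative TIMM8A averaged 3.76 FPKM with siDYRK2 and 2.8 FPKM with scramble, also a rise. TIMM10B fell 1.22-fold. TIMM22, the pore that inserts carriers, was not called (log2 fold change 0.10, limma adjusted p = 0.12). Without siDYRK2 replicate 1 or scramble replicate 3 the number that rose was 2.

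Among 19 other mitochondrial transporters 9 rose and 1 fell, beside 20.4% and 17.9% of all tested genes, and the median log2 fold change was 0.12, against 0.0086 over all tested genes. SFXN1, which carries serine, stood at 10.89, 10.81 and 11.03 FPKM with siDYRK2, against 8.26, 8.17 and 7.88 FPKM with scramble (log2 fold change 0.41, limma adjusted p = 0.00023). VDAC1, a pore of the outer membrane, rose 1.23-fold, the pyruvate carrier subunit MPC2 1.22-fold and LETM1, a cation exchanger, 1.17-fold. ABCB8, an ABC transporter of the inner membrane, rose 1.26-fold, and the sideroflexins SFXN2 and SFXN4 rose 1.38-fold and 1.14-fold. The member that fell was MCU, the pore of the calcium uniporter, at 8.17, 8.59 and 8.55 FPKM with siDYRK2, against 13.94, 12.88 and 12.94 FPKM with scramble (log2 fold change −0.62, limma adjusted p = 8.2e-05). MICU2, MCUB and SMDT1, which act in the same channel complex, were not called. Without siDYRK2 replicate 2 the number that rose was 6.

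Of 27 enzymes that use or make the carried substrates 14 rose and 4 fell, beside 20.4% and 17.9% of all tested genes. For citrate, ACLY, which splits exported citrate into acetyl-CoA, fell alongside SLC25A1. ACLY stood at 73.19, 70.96 and 73.97 FPKM with siDYRK2, against 118.93, 118.04 and 105.26 FPKM with scramble (log2 fold change −0.64, limma adjusted p = 0.00012). CS, the synthase that makes citrate in the matrix, rose 1.38-fold and IDH2 1.55-fold, and MDH2 rose to a mean of 77.7 FPKM with siDYRK2, against 55.5 FPKM with scramble. For acylcarnitine, CPT1A, which makes it at the outer membrane, rose alongside SLC25A20, at 15.14, 15.26 and 17.14 FPKM with siDYRK2, against 9.99, 9.63 and 9.55 FPKM with scramble (log2 fold change 0.68, limma adjusted p = 0.00013). CPT2, which reverses that step in the matrix, was not called (log2 fold change 0.15, limma adjusted p = 0.11).

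For ornithine the carrier and the enzyme went opposite ways. OAT, the ornithine aminotransferase of the matrix, fell to 9.28, 9.5 and 9.2 FPKM with siDYRK2, against 60.31, 56.72 and 56.36 FPKM with scramble (log2 fold change −2.57, limma adjusted p = 1.8e-07), while SLC25A15 rose. GLUD1, which oxidises glutamate in the matrix, also fell (log2 fold change −0.27, limma adjusted p = 0.003). For iron, FECH, which inserts iron into haem, rose to 8.03, 7.63 and 7.39 FPKM with siDYRK2, against 5.91, 5.54 and 6.06 FPKM with scramble (log2 fold change 0.37, limma adjusted p = 0.0015). ALAS1, the first enzyme of haem synthesis, rose 1.20-fold. The mitoferrin SLC25A37 fell, and SLC25A28 was not called (limma adjusted p = 0.29). The small fall of the glycine carrier SLC25A38 lost its call in 7 of 15 alternatives. For the malate-aspartate shuttle GOT2, MDH1 and MDH2 rose with SLC25A12 and SLC25A13. GOT1 and the oxoglutarate/malate carrier SLC25A11 were not called (limma adjusted p = 0.077 and 0.083). For folate, MTHFD2 rose 1.16-fold and MTHFD1L 1.11-fold while SLC25A32 fell, and SHMT2 was not called. The ATP synthase subunits ATP5F1B and ATP5F1A, which use the ADP and phosphate brought in, rose 1.27-fold and 1.23-fold.

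**Figure D4:**
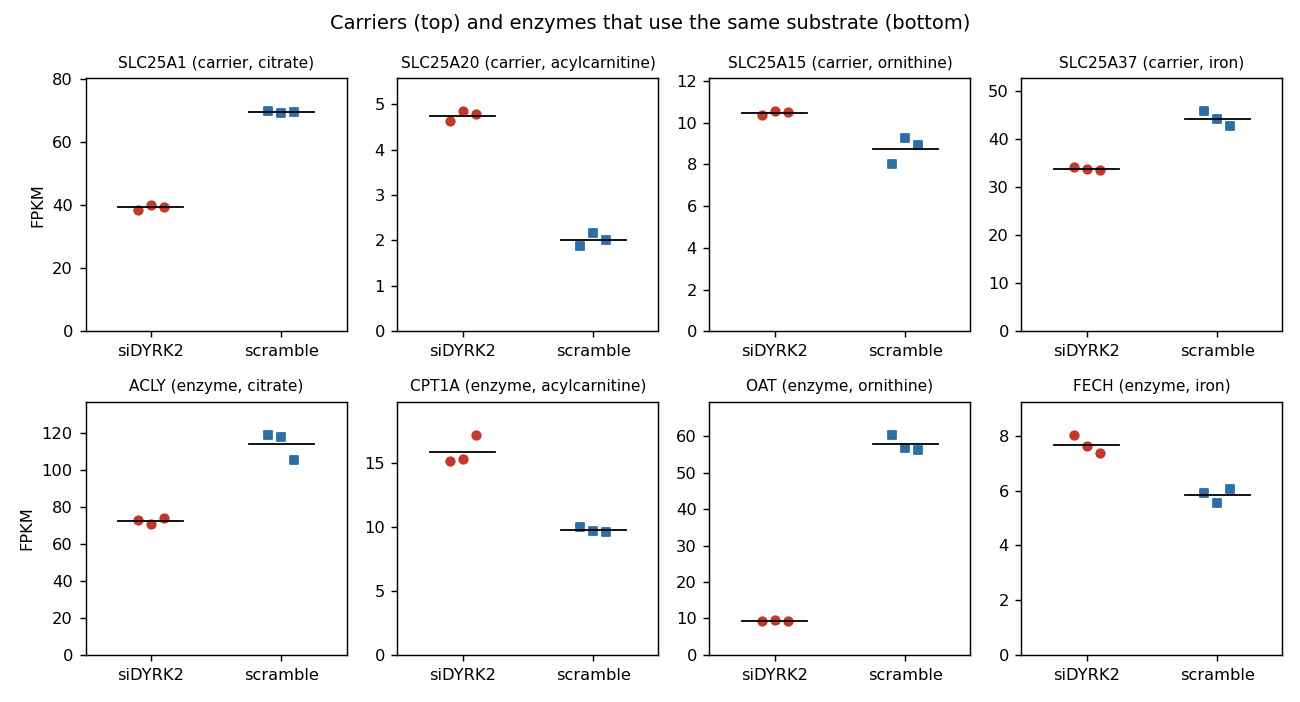
FPKM (vertical axes, each from 0) of 4 carriers (top) and of an enzyme that uses or makes the same substrate (bottom). Red circles mark the 3 siDYRK2 libraries, blue squares the 3 scramble libraries and lines the means. The pairs were chosen after their values were seen. SLC25A1 and ACLY are both lower with siDYRK2 and SLC25A20 and CPT1A both higher, while SLC25A15 with OAT and SLC25A37 with FECH differ in opposite directions.

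Of 11 factors of mitochondrial biogenesis 10 were tested, 7 rose and 0 fell, beside 20.4% and 17.9% of all tested genes. GABPB1, the partner of the ETS factor GABPA, rose 1.36-fold (limma adjusted p = 0.0005), ESRRA 1.14-fold and TFAM, which packages mitochondrial DNA, 1.14-fold. PPARGC1B, a coactivator, rose 1.47-fold, the mitochondrial transcription factors TFB1M and TFB2M 1.23-fold and 1.11-fold, and the coactivator PPRC1 1.09-fold. GABPA and NRF1 were not called, and PPARGC1A was listed at 0 in 5 libraries and at 0.01 FPKM in 1. Most of these differences were small: the number that rose was 3 without siDYRK2 replicate 2, 4 without scramble replicate 2 and 4 with the replicate number as a block. Among the 13 mitochondrially encoded protein genes 2 rose (MT-CO1 and MT-ND1) and 1 fell (MT-ND6), a share near that of all tested genes or below it in each direction. The number that rose was 1 without siDYRK2 replicate 1 or scramble replicate 2 and 4 without scramble replicate 1. The fall of MT-ND6 was lost with the replicate block and in 4 of the 6 fits that leave out a library.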

How the data were processed

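RNA isolated with Trizol and treated with DNase I was sequenced by Illumina chemistry (per the labels' protocols). HISAT2, StringTie and the build GRCh38 appear in the submitters' processing notes with no version or role. Annotation and strand use are not stated there. Values are FPKM that the authors deposited, to 2 decimals, per the file headers, and 0 columns were left unmatched. At the best scale found for each library, 29.3% or fewer of the low values were within 0.1 of a whole read. A scale fixed in advance gives 20% by chance. Counts were therefore not recovered, no counting interval is given and depth is unknown.

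Testing used limma 3.58.1 under R 4.3.3 on log2(FPKM + 0.5) for genes averaging 0.5 FPKM or more over 6 libraries (mean-variance trend, Benjamini-Hochberg over 15121 genes), without a block. Simulated data with independent noise and far fewer changed genes than were called here checked the code of the test, not the calls. Intervals are unadjusted. Every carrier is counted, with values per library for those past the threshold, the 5 most abundant rows and contrasting paralogs. For the other lists, called members were named, at most 8 by smallest adjusted p. Enzymes beyond these 8, and list genes not called, were named after their values were seen. Values of 1 carrier and 2 list genes, which enter the counts, are not reported here. The carriers and lists were chosen with earlier results of these data known. Genome positions are RefSeq's on GRCh38.p14, and strands GENCODE v29's.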

Additional observations from a re-analysis of the deposited data

How the results depend on the processing

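All genes and the carriers were refitted under 9 other settings, 6 fits that leave out 1 library, and, chosen after seeing the data, 1 with the SLC25A6 rows summed. The carriers that rose numbered 8 or 9 and those that fell 7 to 11 over these fits. Over all tested genes 3079 rose and 2714 fell in the main fit, but 2746 rose and 2940 fell under median-ratio scaling. Which direction held more calls over all genes therefore depended on the scaling. Leaving out a library gave 8 to 9 that rose, 7 to 10 that fell, 2332 to 2728 and 2099 to 2367 over all genes, and −1.71 to −1.68 for DYRK2. Of the 18 called carriers 15 kept their call in every fit that tested them and 3, SLC25A38, SLC25A45 and SLC25A34, lost it in at least 1. Of the uncalled, 6 gained a call in at least 1. 0 carriers reversed a call. With no filter on low values, and so 32812 genes tested, 8 carriers rose and 7 fell, 2 import genes rose, 3 biogenesis factors rose, and 0 mitochondrially encoded genes rose and 0 fell. The mitochondrially encoded genes that fell numbered 2 with a filter at 1 FPKM, a fixed sum or median-ratio scaling, and 0 without the mean-variance trend. Leaving out a library gave 2 to 3 import genes, 3 to 5 biogenesis factors and 1 to 4 mitochondrially encoded genes that rose, and 0 to 2 of the last that fell. The cause was not tested.

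With the replicate number as a block 9 carriers rose and 9 fell, 2495 and 2321 over all genes, 4 biogenesis factors rose and 0 mitochondrially encoded genes fell. Deviations of same-numbered libraries correlated at −0.0767, 0.0243 and −0.0884 across genes, and those of differently numbered libraries at −0.0402 to 0.11. These correlations cannot exclude a weak pairing or one limited to some genes. The labels give only a replicate number, so whether libraries were paired is unknown. Without counts, what depth limits is unknown.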
